A study of Mus musculus with 8 samples.

Results

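Id1, Id2, Id3 and Id4, which encode the inhibitor of DNA binding proteins, and Smad6 and Smad7, which encode the inhibitory Smads, were followed on arrays from Med23-/- and wild-type mouse embryonic fibroblasts. The members were all probe sets whose annotation named one of these 6 genes alone, which gave 10 of 22626 probe sets on the arrays. Id2 and Id4 had 3 probe sets each and the other genes 1 each. The genes were chosen on the serum response of Id genes, which had been seen to be smaller in knockout cells, so their serum responses, and the difference of these between the genotypes, are given below as a description with no test.

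The cells were fibroblasts from E11 embryos (day 11 of gestation) that had been passaged through crisis, the stage after which an immortal line grows out of a primary culture. All cells were first kept for 16 h in 0.5% serum. For wild-type (WT) cells and for Med23-/- knockout (KO) cells, 2 arrays came from cells left starved and 2 from cells then given 20% serum for 30 min, so that each of the 4 groups has n = 2. The labels do not say whether replicates were separate cultures, so p-values measure only the spread between these samples, and each genotype is represented by 1 kind of culture, so loss of MED23 cannot be told apart from other differences between the lines.

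Id proteins have a helix-loop-helix domain without the basic region that contacts DNA. They dimerise with E proteins and other basic helix-loop-helix (bHLH) factors and keep them off DNA, and in mesenchymal cells they are best known as early targets of bone morphogenetic protein (BMP) signalling. BMP and TGF-beta receptors phosphorylate signal-carrying Smads, which enter the nucleus with Smad4. Smad6 and Smad7 are induced by the same pathway and oppose it, Smad6 mainly in the BMP branch and Smad7 in both branches.

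Promoter sequences were available for 4 of the 6 genes, taken from RefSeq on build GRCm38.p6, and are shown for reference. Their link to the expression patterns was not tested. The stretches of Id2 (chr12:25096093-25096342, minus strand), Id3 (chr4:136143572-136143821, plus strand) and Id4 (chr13:48260866-48261115, plus strand) each end at the last base before the annotated start of transcription. Capitals mark GGCGCC and CCAAT (either strand) in Id2 and Id4, and CAGAC (either strand) in Id3.
Id2: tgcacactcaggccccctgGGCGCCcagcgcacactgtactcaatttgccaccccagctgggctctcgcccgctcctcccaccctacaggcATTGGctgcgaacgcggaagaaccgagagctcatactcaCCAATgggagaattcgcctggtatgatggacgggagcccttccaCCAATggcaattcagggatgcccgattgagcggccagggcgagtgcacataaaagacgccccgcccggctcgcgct
Id3: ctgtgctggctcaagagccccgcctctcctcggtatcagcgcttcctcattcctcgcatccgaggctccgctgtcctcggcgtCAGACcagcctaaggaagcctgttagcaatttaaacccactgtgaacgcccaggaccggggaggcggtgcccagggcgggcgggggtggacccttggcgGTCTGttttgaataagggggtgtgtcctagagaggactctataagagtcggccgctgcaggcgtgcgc
Id4: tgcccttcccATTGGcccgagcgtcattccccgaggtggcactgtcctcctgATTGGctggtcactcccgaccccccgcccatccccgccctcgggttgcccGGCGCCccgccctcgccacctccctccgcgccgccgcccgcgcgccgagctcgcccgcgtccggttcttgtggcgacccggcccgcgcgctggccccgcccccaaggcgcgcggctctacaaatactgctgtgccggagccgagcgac
For Smad6 the 30 bases around the start (chr9:64022045-64022074, minus strand) are given, with the palindrome GTCTAGAC in capitals.
Smad6: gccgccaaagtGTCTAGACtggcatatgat

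GGCGCC, a GC-rich form of the BMP response element, lay at position -231 in Id2 and at -148 in Id4, counted from the start, and was found in 11.9% of the 32851 RefSeq promoter windows of 300 bases. CCAAT occurred 3 times in Id2 and 2 times in Id4 before the start, and in 37.4% of windows. CAGAC, the short Smad-binding sequence, occurred 2 times in Id3 and in 49.6% of windows. GTCTAGAC, the palindromic Smad-binding sequence, began at -4 in Smad6 and was found in 0.213% of windows. The CArG box of serum response factor (1.63% of windows), the cyclic AMP response element TGACGTCA (1.79%) and the Egr sites GCGTGGGCG or GCGGGGGCG (3.47%) were in none of the 4 windows, with both strands searched. No 2 of these motifs overlapped in the stretches shown. These are matches of letters and not measured binding sites.

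The arrays as a whole were close within groups and far apart between genotypes. Over the 14947 probe sets that passed a low-signal filter, r was 0.976 to 0.984 between replicates and 0.750 to 0.805 between arrays of different genotype. Med23 itself read between 3577 and 5410 on the wild-type arrays and between 28 and 132.5 on the knockout arrays. Of 10 fibroblast markers with a probe set, 7 were at or above the 40th percentile of every array, while Thy1 was below it on every array, and none was at 0. Col1a2, a collagen gene, averaged 4726 and 5093 in wild-type and 80480 and 64290 in knockout cells, starved and stimulated, the widest gap in signal units in the list. Its lowest array stood at the 42.7 percentile. Pdgfra, a growth factor receptor gene, was further apart in ratio, with means of 126.7 and 13.37 in wild-type and 13470 and 6510 in knockout cells. The markers did not all differ that way: Dcn, a matrix proteoglycan gene, averaged 6523 and 5988 in wild type and 2933 and 3239 in the knockout, and Fn1, the fibronectin gene, 50850 and 51290 against 52140 and 43890. Their summed signal was 166900 to 186900 in starved and 169400 to 181400 in stimulated wild-type cells, against 308600 to 378400 and 283500 to 299500 in knockout cells. All 4 pluripotency markers, 4 of 5 endothelial and 3 of 5 epithelial markers were below the 40th percentile on all 8 arrays, as were 3 of 5 muscle, 2 of 4 blood and 1 of 5 neural markers. The summed neural markers read 4724 to 5184 in starved and 6955 to 7871 in stimulated wild-type cells, against 2931 to 3401 in the knockout, with Nes, the nestin gene, at means of 3106 and 5684 against 512.1 and 487.8. The summed muscle markers read 1300 to 2256 in the wild type and 914.9 to 1254 in the knockout, and the blood markers 1281 to 1887 over all arrays. The summed epithelial markers read 1325 to 1787 in the wild type and 407.5 to 1073 in the knockout. The part of these marker differences in the results below was not tested, and fewer cells of a type cannot be told apart from less RNA per cell.

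Values below are MAS5 signals, and log2 differences are of log2(signal + 16) from a limma fit to all 8 arrays, given with their standard error (SE). A probe set was tested if it was at or above the 40th percentile of its array on at least 2 arrays, which held for 9 of the 10 member probe sets. The other 1, the Id2 probe set 1453596_at, reached that level on 1 array. The 2 other Id2 probe sets and the 3 of Id4 passed on 6 arrays, all those outside starved wild-type cells, so they passed through the groups in which they were high.

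Id1 read 1604 and 783.8 in starved wild-type cells and 16720 and 15270 after serum. In knockout cells it read 5544 and 4293 before and 7300 and 5984 after serum. The 4 groups did not overlap, and their order from high to low was stimulated wild type, stimulated knockout, starved knockout and starved wild type. The log2 change with serum was 3.81 ± 0.273 (SE) in wild-type and 0.44 ± 0.273 in knockout cells. Thus starved knockout arrays lay above starved wild-type arrays by 2.10 ± 0.273, and stimulated knockout arrays below stimulated wild-type arrays, with a difference of -1.27 ± 0.273.

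**Figure D1:**
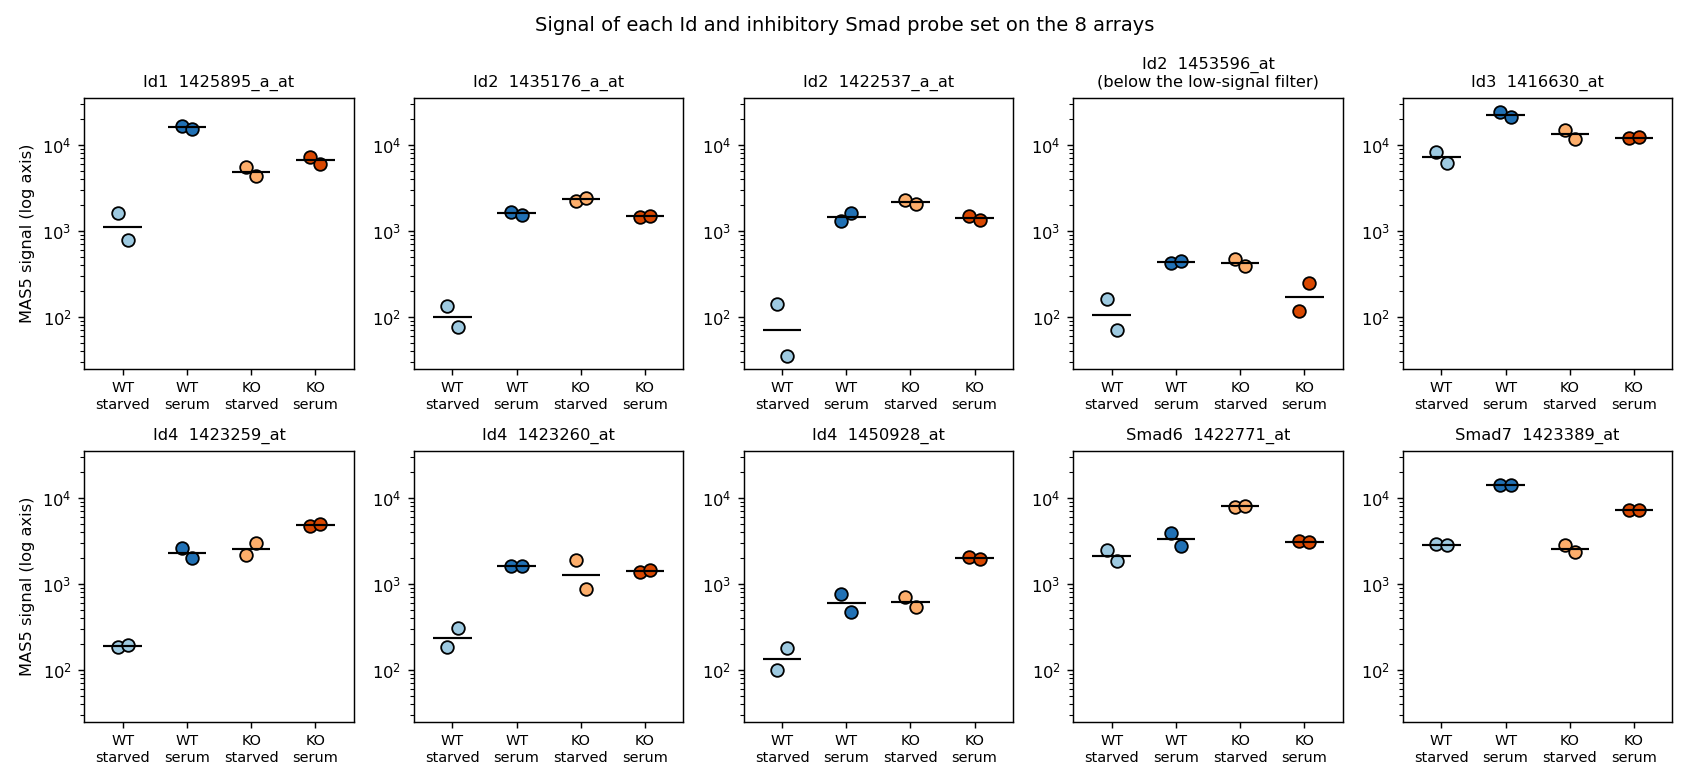
MAS5 signal (log axis) of the 10 member probe sets on each of the 8 arrays, by group (WT wild type, KO knockout); points are arrays and bars are geometric means of 2 arrays. For Id1, Id3, Id4, Smad6 and the 2 brighter probe sets of Id2 the starved wild-type arrays are the lowest. In knockout cells Smad6 is lower after serum while Smad7 is higher.

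Id2 was near the floor in starved wild-type cells and not in starved knockout cells. Its brightest probe set, 1435176_a_at, read 133.5 and 75.97 in starved and 1646 and 1545 in stimulated wild-type cells. In knockout cells it read 2239 and 2440 when starved and 1444 and 1507 after serum. All arrays were thus higher after serum in wild-type cells and lower after serum in knockout cells, and the stimulated groups of both genotypes ended close together. The log2 change was 3.78 ± 0.233 in wild-type and -0.66 ± 0.233 in knockout cells. The second probe set, 1422537_a_at, gave 4.02 ± 0.415 and -0.63 ± 0.415, from 142.9 and 34.9 in starved to 1296 and 1602 in stimulated wild-type cells. Starved values of 34.9 to 142.9 stood between the 9.39 and 22.8 percentile of their arrays, so the size of the wild-type change depends on the added constant: with the largest constant tried it was 2.36 for the first and 2.32 for the second probe set. The third, dim probe set 1453596_at read 161.3 and 70.48, then 418.4 and 446.6 in wild type, and 466.1 and 391.7, then 118.1 and 247.4 in knockout cells. With serum it ran the same way as the others in both genotypes. Unlike the others, its stimulated knockout arrays lay below the stimulated wild-type arrays, with a difference of -1.25 ± 0.459.

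Id3 stood between the 86.3 and 98.2 percentile of every array, far from the floor. It read 8280 and 6204 in starved and 24000 and 20770 in stimulated wild-type cells, a log2 change of 1.64 ± 0.158. In knockout cells it read 14850 and 11760 when starved and 11970 and 12280 after serum, a log2 change of -0.12 ± 0.158. The knockout groups overlapped, and after each array was centred on its median the knockout change was 0.03. Both lay between the 2 wild-type groups: knockout signal was above wild type by 0.88 ± 0.158 in starved cells, and the difference was -0.88 ± 0.158 after serum.

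Id4 gave different pictures with its 3 probe sets. The brightest, 1423259_at, read 185.3 and 193.9 in starved and 2634 and 1995 in stimulated wild-type cells, and 2162 and 2949 in starved and 4679 and 4926 in stimulated knockout cells. Its log2 change was 3.49 ± 0.193 in wild-type and 0.92 ± 0.193 in knockout cells. Starved knockout arrays thus overlapped stimulated wild-type arrays, and serum was followed by a higher signal in both genotypes. For 1423260_at the changes were 2.68 ± 0.337 and 0.13 ± 0.337, and its starved knockout arrays, at 1894 and 867.8, lay on either side of the stimulated ones at 1378 and 1439. For 1450928_at the changes were 2.03 ± 0.318 and 1.68 ± 0.318, from 100.7 and 181.2 to 770.2 and 472.6 in wild-type and from 706.8 and 542.4 to 2068 and 1967 in knockout cells. The difference between the genotypes' serum changes was therefore -2.57 ± 0.273 and -2.55 ± 0.476 by the first 2 probe sets and -0.35 ± 0.45 by the last, and with the largest added constant these were -1.66, -1.81 and 0.24. The knockout change of 1423260_at had no stable sign, with -0.42 to 0.69 when each array was left out. Which transcripts each of these probe sets reads was not analysed here.

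Smad6, which blocks BMP receptors and Smad1 complexes, read 2462 and 1834 in starved and 3944 and 2723 in stimulated wild-type cells, a log2 change of 0.62 ± 0.189. In knockout cells it read 7864 and 8059 when starved and 3113 and 3070 after serum, a change of -1.36 ± 0.189. The starved knockout arrays stood above all the others, and the stimulated knockout arrays fell within the range of the stimulated wild-type arrays. The knockout exceeded wild type by 1.90 ± 0.189 in starved cells, and the difference was -0.08 ± 0.189 after serum.

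Smad7, which recruits ubiquitin ligases to the receptors, overlapped between the genotypes in starved cells, at 2890 and 2826 in wild-type and 2832 and 2330 in knockout cells. After serum it read 14140 and 14070 in wild-type and 7242 and 7179 in knockout cells. Both genotypes had no overlap between starved and stimulated arrays, with log2 changes of 2.30 ± 0.123 and 1.48 ± 0.123. The stimulated groups were apart, with a knockout minus wild-type difference of -0.97 ± 0.123, and the starved groups overlapped, at -0.15 ± 0.123.

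**Figure D2:**
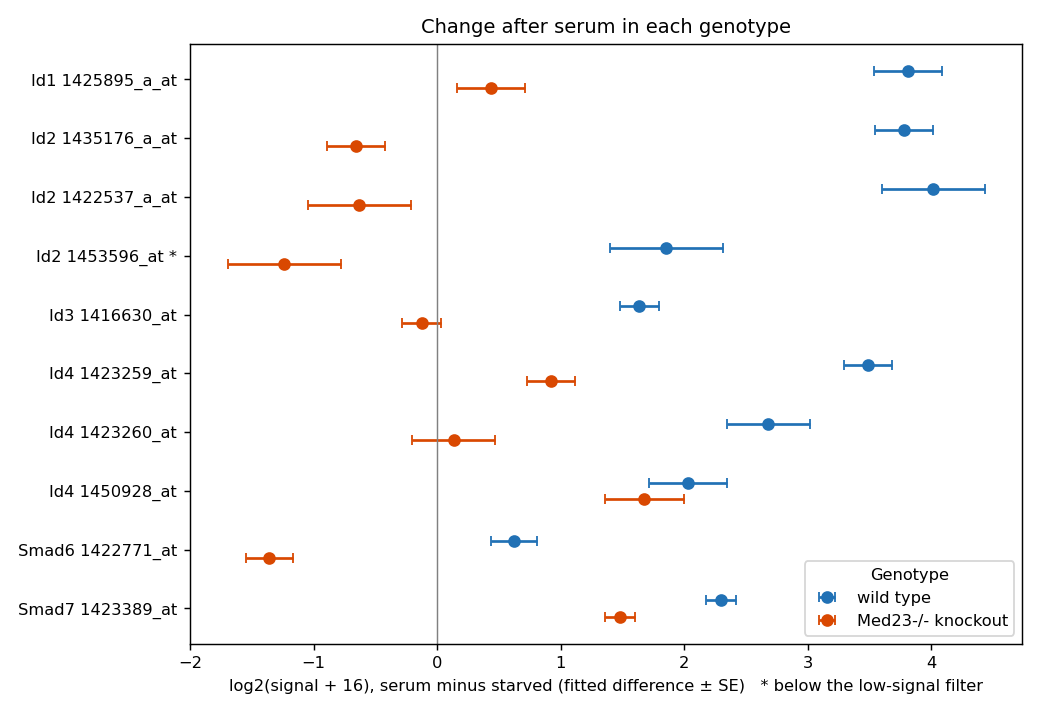
Fitted log2 difference of serum minus starved (x axis, log2(signal + 16), bars are SE, n = 2 arrays per group) for each probe set (y axis) in wild-type and knockout cells; the star marks the probe set below the low-signal filter. Wild-type values run from 0.62 for Smad6 to 4.02 for Id2, and knockout values from -1.36 for Smad6 to 1.68 for the Id4 probe set 1450928_at.

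By the study's own rule of over 2-fold, taken here with no overlap between arrays, 8 of the 9 tested member probe sets were higher after serum in wild-type cells, where 1.77% of all 14947 tested probe sets were. In knockout cells 2 were higher, 1 each of Id4 (1450928_at) and Smad7, against 3.75% of all, and 1, Smad6, was lower, against 3.21%. For the difference between the 2 responses, 7 were lower in the knockout, by over 2-fold between the means and in the same direction in every combination of arrays, against 2.67% of all. The median log2 change of the 9 was 2.68 in wild type and 0.13 in the knockout, beside -0.05 and -0.13 over all probe sets. In starved cells 7 were higher in the knockout, against 8.80% of all, and after serum 2 were higher (8.55% of all) and 1 lower (12% of all). The choice of the genes used these responses, so nothing is read from the counts. Just inside that rule for the wild-type response was Id3, at a log2 change of 1.64, and just outside was Smad6, at 0.62.

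The comparison of the genotypes averaged over both serum states was tested. It is orthogonal to the 2 serum responses, but independent of them only if the groups have equal spread. That was not tested, and the gaps between paired arrays were unlike. In wild-type cells Id1 read 1604 and 783.8 starved against 16720 and 15270 after serum. The Id2 probe set 1422537_a_at read 142.9 and 34.9 against 1296 and 1602. The starved wild-type values behind the choice of the genes also enter this average. Without starved wild-type array 1 or 2, the Id1 difference of responses was -3.885 or -2.867, and its average genotype difference 0.671 or 0.162. Of 9 member probe sets, 6 were higher in knockout cells and 1 was lower by limma with Benjamini-Hochberg adjustment over all probe sets. This comparison called 59.7% of all tested probe sets, 27.7% higher and 32% lower, so the share among the members is not a result about them. Id4 was higher by 2.35 ± 0.137 (adjusted p = 2.79e-07), with 3 of 4 knockout arrays above all wild-type arrays, and by its other probe sets by 1.89 ± 0.225 (adjusted p = 4.64e-05) and 1.09 ± 0.238 (adjusted p = 0.00268). Id2 was higher by 2.11 ± 0.165 (adjusted p = 2.3e-06) and 2.29 ± 0.293 (adjusted p = 7.69e-05), and Smad6 by 0.91 ± 0.134 (adjusted p = 0.000203), each with 2 of 4 knockout arrays above all wild-type arrays. The Id2 probe set left out of the test, 1453596_at, gave 0.29 ± 0.324. These tested Id2 and Id4 probe sets passed the low-signal filter only through groups where they were high, both knockout groups among them. Their p-values are therefore not free of that choice. Smad7 was lower, at -0.56 ± 0.0868 (adjusted p = 0.000289), with 1 of 4 knockout arrays below all wild-type arrays. For Id2 and Smad6 the average comes from the starved state, since the difference after serum was -0.11 and -0.03 for Id2 and -0.08 for Smad6. The same held for the Id4 probe set 1423260_at, at 2.36 ± 0.337 in starved cells and -0.19 ± 0.337 after serum. For it, 1 of 4 knockout arrays lay above all wild-type arrays. For these probe sets of Id2, Smad6 and Id4 the starved difference is also part of the difference of responses. Their p-values are therefore not separate from the choice of the genes. The Smad7 average comes mostly from the stimulated state, at -0.97 after serum and -0.15 in starved cells. The summed signals of the fibroblast, neural, muscle and epithelial markers differed in the same comparison, as given above, and their part in these differences was not tested.

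Id3 had an average genotype difference of 0.00 ± 0.112 (adjusted p = 0.995), with a 95% interval from -0.25 to 0.25, its opposite differences in the 2 states being of the same size. Id1 had 0.42 ± 0.193 (adjusted p = 0.0865), with a 95% interval from -0.01 to 0.85, and passed after centring on array medians (0.52, adjusted p = 0.034). With array 1 of the starved wild type left out, the Id1 value was 0.67 and passed (adjusted p = 0.00162), and with array 2 left out it was 0.16 (adjusted p = 0.295). For no member probe set did the knockout arrays lie all above or all below the wild-type arrays. For Id1 and Id3 no knockout array lay outside the range of the wild-type arrays.

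**Figure D3:**
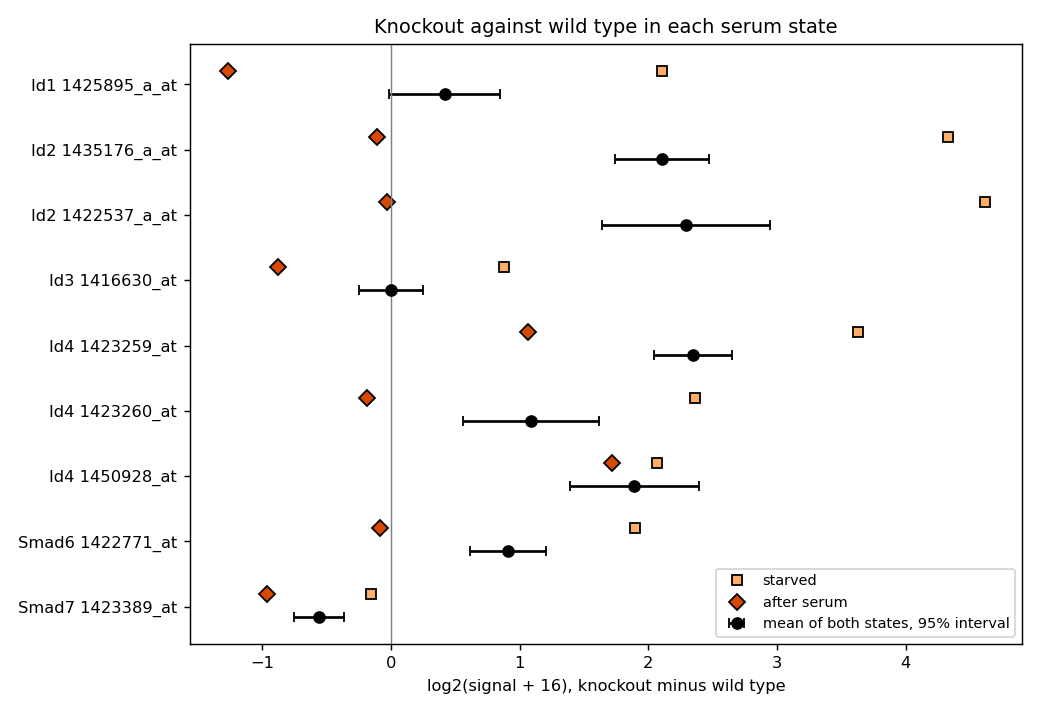
Knockout minus wild type on the log2(signal + 16) scale (x axis) for the 9 tested member probe sets (y axis); squares are starved cells, diamonds are stimulated cells, and circles are the mean of both with its 95% interval. The starved values run from -0.15 for Smad7 to 4.61 for Id2 and those after serum from -1.27 for Id1 to 1.71 for Id4.

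Among themselves the members fell into unlike patterns over the 8 arrays, given as a description because the arrays share 4 groups. Id1 and Id3 correlated at Pearson r = 0.965, and Id2 and Id4, by their brightest probe sets, at 0.936. The first 2 Id2 probe sets correlated at 0.990. Smad6 correlated with Id2 at 0.731 and with Id1 at 0.345, and Smad7 with Id1 at 0.797 and with Id2 at 0.383. Between Smad6 and Smad7 r was -0.277: both were higher after serum in wild-type cells, and in knockout cells Smad6 was lower and Smad7 higher.

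Genes of like pattern were sought among 4145 other genes that spanned at least 1 on the log2 scale, by the highest Pearson r over the 8 arrays. Nearest to Id1 were Rusc2 (r = 0.9705), Id3 (0.9651), the cytokine signalling inhibitor Socs1 (0.9493), the death receptor Tnfrsf10b (0.9422) and the clock repressor Per2 (0.8937). Socs1 averaged 135.6 in starved and 566.1 in stimulated wild-type cells, against 329.4 and 286 in the knockout. Socs1 (0.9448) and Rusc2 (0.9253) were also among the nearest to Id3, with Id1, the insulin receptor substrate Irs2 (0.9197) and the interferon regulatory factor Irf5 (0.8962).

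Nearest to Id2 were Il4i1 (r = 0.9671), the bHLH factor Atoh8 (0.9398), Id4 (0.9358), the receptor tyrosine kinase antagonist Spry2 (0.9351) and the forkhead factor Foxf2 (0.9335). Nearest to Id4 was Spry2, at 0.9918, followed by Tiparp (0.9787), the ubiquitin ligase Rnf19a (0.9743), the TGF-beta-binding protein Vasn (0.9728) and the actin cross-linker Flnc (0.968). Spry2 averaged 789.3 and 3357 in wild-type and 3392 and 5234 in knockout cells, before and after serum, so that starved knockout cells were level with stimulated wild-type cells, as for Id4.

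Smad6 had Hif3a (r = 0.9784), Fam43a (0.9681), Rab7b (0.958), the Wnt receptor Fzd7 (0.9501) and Magi3 (0.9432) nearest, all highest in starved knockout cells. Fam43a averaged 12070 there against 750.3 in starved wild-type and 1243 in stimulated knockout cells. Smad7 had the angiogenic factor Vegfa (0.9966), the cytokine Clcf1 (0.9856), Phlda1 (0.9853), Thoc6 (0.9851) and the chemokine Ccl20 (0.9848) nearest. Vegfa averaged 2968 and 12530 in wild-type and 2893 and 6509 in knockout cells, so it shared with Smad7 a like starved level in both genotypes and a lower stimulated level in the knockout.

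The other genes of the pathway were taken as 5 lists of 76 genes: receptors, signal-carrying Smads, regulators of Smads, bHLH factors and other targets of Smads. Of these, 71 had a probe set naming them alone and 56 were tested, each by its brightest probe set. In wild-type cells serum changed 13 of them, 12 up and 1 down, against 4.14% of all probe sets, with a median log2 change of 0.12 against -0.05 for all. None of 10 receptors or 5 signal-carrying Smads passed limma's test, with 1 receptor, Tgfbr2, and 1 Smad, Smad1, at an unadjusted p under 0.05. Among other targets 6 of 16 rose, with a median of 0.38, and those with the smallest p were the repressor Klf10 at 2.57 ± 0.111 (adjusted p = 8.02e-07), the AP-1 factor Junb at 2.83 ± 0.172 (adjusted p = 5.99e-06) and Snai1, a repressor of epithelial genes, at 2.29 ± 0.227 (adjusted p = 0.000254). Atoh8, a target of BMP signalling, rose by 2.66 ± 0.41 (adjusted p = 0.00455), from 243.3 and 74.75 in starved cells. It passed in all 17 alternatives, but the size ran from 1.90 to 3.42 with each array left out and was 1.58 with the largest added constant. Of 8 bHLH factors only Hes1, a Notch target that Id proteins can bind, rose, by 2.87 ± 0.162 (adjusted p = 3.7e-06).

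Among 17 Smad regulators 5 rose in wild-type cells. The corepressors Tgif1 and Tgif2 rose by 1.04 ± 0.115 (adjusted p = 0.000521) and 1.09 ± 0.161 (adjusted p = 0.00351). Skil, the SnoN corepressor, rose by 0.80 (adjusted p = 0.0335), and by 1.66 by a second probe set (adjusted p = 0.00455). Ppp1r15a, a phosphatase subunit that binds Smad7, rose by 0.69 (adjusted p = 0.0291). The first Skil call and that of Ppp1r15a were lost when any 1 of the 4 stimulated arrays was left out, and also without array 1 of the starved wild type; that of Ppp1r15a was lost without array 2 as well. The adjusted p reached 0.157 for Skil and 0.173 for Ppp1r15a. The kinase inhibitor Cdkn2b was the 1 fall, at -1.56 ± 0.223 (adjusted p = 0.00299), and the call was lost without any 1 of the wild-type arrays other than the second stimulated one (adjusted p up to 0.0773). The count of 13 became 7 when array 1 of the starved wild type was left out, and 8 when either of its stimulated arrays was.

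In knockout cells serum changed 25 of the 56, 16 up and 9 down, where 23.1% of all probe sets passed, 9.33% up and 13.8% down. After centring on array medians these were 13.1% up and 6.64% down, and the median change of all probe sets went from -0.13 to 0.03. Of 5 signal-carrying Smads, Smad1, which carries BMP signals, rose by 0.98 ± 0.105 (adjusted p = 0.000171), and Smad2, which carries TGF-beta signals, by 0.47 ± 0.133 (adjusted p = 0.0303). Smad3, the partner of Smad2, had a log2 change of -1.07 ± 0.133 (adjusted p = 0.000472). Smad5, of the BMP branch, fell by 0.70 (adjusted p = 0.00642), though a second Smad5 probe set gave 0.40 (adjusted p = 0.114). The Smad2 call was lost when any 1 knockout array but the second stimulated one was left out (adjusted p up to 0.224), and the Smad5 call without the first stimulated one (adjusted p = 0.0595).

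Of 10 receptors in knockout cells, Tgfbr1 rose by 0.93 ± 0.154 (adjusted p = 0.00239), with 0.16 and -0.10 by its other probe sets, which did not pass. Acvr1b fell by 0.97 (adjusted p = 0.0025) and Tgfbr2 by 0.59 (adjusted p = 0.0106), the latter not when the second starved or the first stimulated array of the knockout was left out (adjusted p up to 0.0804). Among 17 Smad regulators 6 rose and 1 fell. Those with the smallest p were Ppp1r15a at 2.39 ± 0.148 (adjusted p = 3.7e-06), Skil at 2.06 ± 0.177 (adjusted p = 4.31e-05), Tgif2 at 1.70 ± 0.161 (adjusted p = 7.62e-05) and Tgif1 at 0.91 ± 0.115 (adjusted p = 0.000517), and Tob1 rose by 1.48 ± 0.193 (adjusted p = 0.000612). Hes1 rose by 2.40 ± 0.162 (adjusted p = 6.62e-06), and the E protein Tcf3, a direct partner of Id proteins, fell by 0.54 (adjusted p = 0.00862), which was lost without stimulated knockout array 1 (adjusted p = 0.0692). Of 16 other targets 6 rose and 3 fell, with a median of 0.33. Junb at 4.09 ± 0.172 (adjusted p = 2.2e-07), Klf10 at 3.51 ± 0.111 (adjusted p = 3.85e-08), the matrix protein gene Ccn2 at 2.03 ± 0.183 (adjusted p = 5.78e-05) and Gadd45b at 0.91 ± 0.121 (adjusted p = 0.000674) had the smallest p among the rises, while the cell cycle inhibitor Cdkn1a rose by 2.54 ± 0.469 (adjusted p = 0.00427). Another Gadd45b probe set gave -0.62 and did not pass (adjusted p = 0.0966).

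The difference between the serum responses, knockout minus wild type, passed for 12 of the 56 pathway genes, 7 higher and 5 lower, against 2.69% of all probe sets, 1.61% higher and 1.08% lower (2.36% and 0.723% after centring on array medians). Atoh8 was the gene whose pattern was also among the nearest to Id2. It read 243.3 and 74.75, then 799.7 and 1134 in wild-type cells, and 4047 and 2826, then 1232 and 1199 in knockout cells. It was thus low only on the starved wild-type arrays, and its knockout arrays were lower after serum. Its difference was -4.12 ± 0.58 (adjusted p = 0.00569), and it passed without any single array, with values between -4.88 and -3.37; its fall in knockout cells alone, at -1.46 (adjusted p = 0.0284), was lost without any 1 of the 4 knockout arrays (adjusted p up to 0.133). Ppp1r15a had the reverse sign, at 1.70 ± 0.209 (adjusted p = 0.00336), and also passed without any single array. It read 3465 and 3670 before and 6052 and 5461 after serum in the wild type, and moved from 2298 and 1720 to 10660 and 10270 in the knockout.

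The other 10 differences each lost their call without at least 1 array. The Snai1 difference was -1.75 ± 0.321 (adjusted p = 0.0217), from 3256 and 1948 to 12950 and 11780 in wild-type and from 3238 and 2547 to 3697 and 4715 in knockout cells. Its adjusted p reached 0.101 without stimulated knockout array 1. Smad3 had -1.10 ± 0.189 (adjusted p = 0.016, up to 0.0766 without stimulated knockout array 1), and its second probe set -0.38 (adjusted p = 0.393). Acvr1b, a type I activin receptor, had -1.20 ± 0.228 (adjusted p = 0.0254, up to 0.0921 without stimulated knockout array 2), and Tsc22d1 had -1.11 ± 0.197 (adjusted p = 0.0192, up to 0.0934 without stimulated knockout array 1), with -1.05 to -2.22 by its other probe sets, the 3 larger of which passed. A second probe set of Tgfbr2 passed at -0.84 (adjusted p = 0.0423), while the brightest gave -0.23 and did not. Klf10 responded more by 0.93 ± 0.157 (adjusted p = 0.0151, 0.869 to 0.996 with each array left out). Its means before and after serum were 3662 and 21860 in wild-type and 1255 and 14440 in knockout cells. Skil responded more by 1.26 ± 0.25 (adjusted p = 0.0296, 0.947 to 1.573 with each array left out), with -0.23 by a second probe set (adjusted p = 0.773). Its means were 11360 and 19270 in wild-type and 3529 and 14690 in knockout cells. Both genes thus started and ended lower in the knockout. Tob1, a protein that restrains BMP Smads, responded more by 1.29 ± 0.273 (adjusted p = 0.0385, 1.003 to 1.572 with each array left out). Its means were 4742 and 5332 in wild-type and 2740 and 7711 in knockout cells. The count of 12 became 5 when array 2 of the starved wild type was left out, 4 or 2 when array 1 or 2 of the stimulated wild type was, and 2 or 4 when array 1 or 2 of the stimulated knockout was. Of 8 bHLH factors 0 passed limma's test of this difference, and 1, Tcf3, had an unadjusted p under 0.05.

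**Figure D4:**
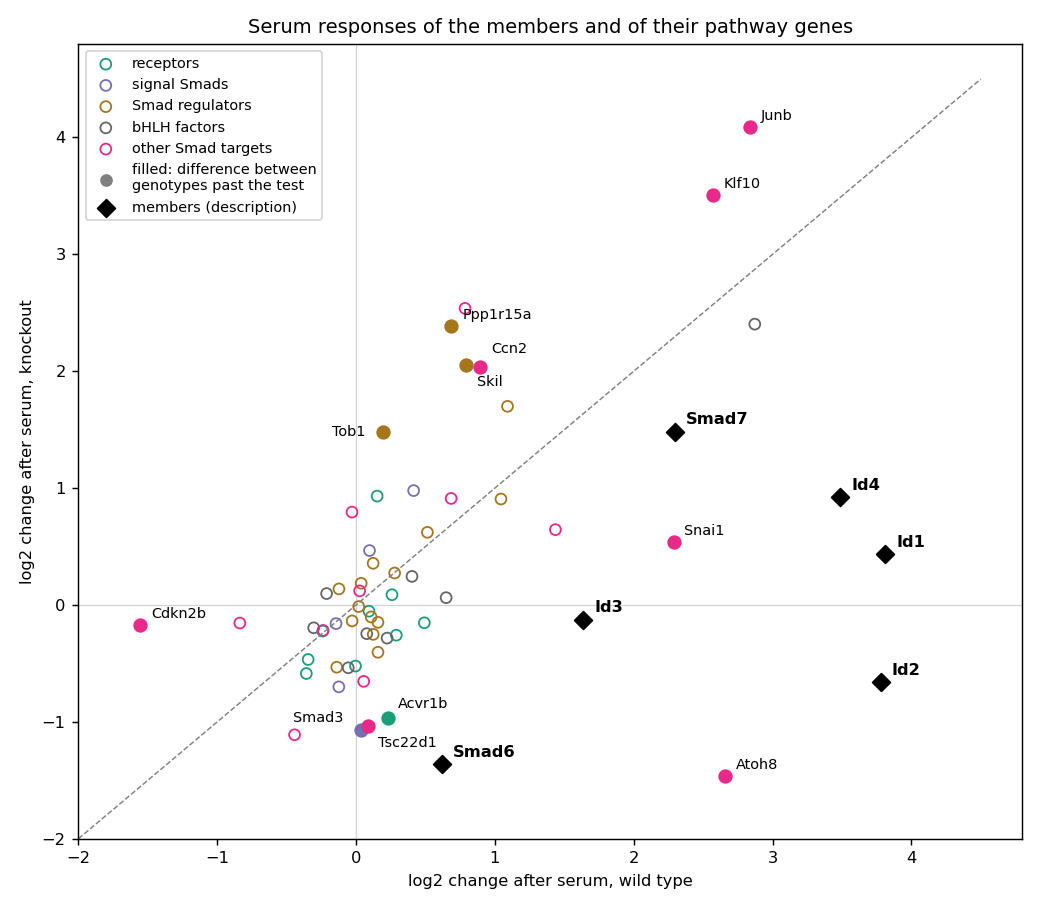
Log2 change after serum in wild-type (x axis) and knockout cells (y axis) of 56 pathway genes (circles, coloured by list) and of the brightest probe set of each of the 6 members (diamonds); filled, named circles are the 12 genes whose difference between the genotypes passed the test, and the dashed line marks equal change. The members all lie below the line, with Snai1 and Atoh8, while Junb, Klf10, Skil and Ppp1r15a lie above it.

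Averaged over both serum states, 40 of the 56 pathway genes differed between the genotypes, 19 higher and 21 lower in the knockout, where 59.7% of all probe sets did. Receptors were split: Tgfbr3, the co-receptor betaglycan, was higher by 1.78 ± 0.159 (adjusted p = 5.97e-06), Acvr2a, a type II receptor for activins and BMPs, by 1.14 ± 0.0972 (adjusted p = 4.4e-06), the decoy receptor Bambi by 1.13 ± 0.17 (adjusted p = 0.000242) and the BMP receptor Bmpr1a by 0.66 ± 0.0837 (adjusted p = 7.09e-05), though 1 of its 5 probe sets gave -0.27 and did not pass. Lower were Acvr1, a type I BMP receptor, at -0.69 ± 0.158 (adjusted p = 0.00344), Acvr1b at -0.60 ± 0.114 (adjusted p = 0.00115) and Tgfbr2 at -0.33 ± 0.0923 (adjusted p = 0.0102), the last not after centring on array medians (adjusted p = 0.0536). Another Acvr1 probe set gave -0.05 and did not pass. All 3 signal-carrying Smads that passed were lower, Smad5 at -0.93 ± 0.0994 (adjusted p = 2.23e-05), Smad3 at -0.52 ± 0.0943 (adjusted p = 0.000782) and Smad1 at -0.28 ± 0.0741 (adjusted p = 0.00723), the last not after centring on array medians (-0.18, adjusted p = 0.0729). Among regulators, Ldlrad4 and Pmepa1, related membrane inhibitors of TGF-beta signalling, were lower at -2.51 ± 0.186 (adjusted p = 1.59e-06) and -2.44 ± 0.0879 (adjusted p = 1.14e-08), as was Tgif1 at -1.31 ± 0.0812 (adjusted p = 4.44e-07), and Zfp423, a zinc finger cofactor of BMP Smads, was higher by 4.67 ± 0.389 (adjusted p = 3.68e-06).

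Of 8 bHLH factors 7 differed on average, 4 higher and 3 lower. Of the E proteins, Tcf4 was higher by 0.86 ± 0.0797 (adjusted p = 8.18e-06) and Tcf12 by 0.48 ± 0.109 (adjusted p = 0.00322), and Tcf3 lower at -0.70 ± 0.081 (adjusted p = 3.86e-05), with 1 of its 3 probe sets not passing. Twist2, a mesenchymal factor, was higher by 3.16 ± 0.252 (adjusted p = 2.71e-06), and Scx, the tendon factor scleraxis, lower at -3.12 ± 0.343 (adjusted p = 2.66e-05). Among other targets 7 were higher and 5 lower. Tgfbi, a matrix protein induced by TGF-beta, was higher by 4.49 ± 0.117 (adjusted p = 1.78e-09) and Snai2 by 1.99 ± 0.128 (adjusted p = 5.88e-07), while Cdkn2b was lower at -6.99 ± 0.158 (adjusted p = 7.47e-10), from 12320 and 4204 in wild-type group means to 43.93 and 37.43 in the knockout, and Klf10 lower at -1.06 ± 0.0784 (adjusted p = 1.49e-06). The knockout values of Cdkn2b and the wild-type values of Zfp423, which averaged 12.36 and 12.63, lay near the floor, and the sizes of these differences move with the added constant. Tgfbi, Twist2 and Zfp423 were below the 40th percentile on all wild-type arrays, and Scx, Ldlrad4 and Cdkn2b on all knockout arrays. They passed the low-signal filter only through the genotype in which they were high, so their p-values are not free of that choice. With the 60th percentile filter 34 pathway genes were called against 40, and Zfp423, Ldlrad4 and Scx were not tested.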

How the data were processed

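RNA was extracted with Trizol and a Qiagen column and carried a biotin label (per the labels' protocols), with 1 array for each of 8 samples. What the authors deposited is the intensity of each probe set; the submitters' processing notes name MAS5 without a version. The arrays share a common trimmed mean (2500.6 to 2500.8 with 2% trimmed at each end). MAS5 takes mismatch probes off the signal, which makes low values unsteady, and 2 arrays per group limit the precision. Of 22690 probe sets, 64 controls were left out. Probe sets at or above the 40th percentile of their array on at least 2 arrays, 14947 in all, were tested. Names came from the annotation given for the arrays, with symbols updated through RefSeq (GRCm38.p6): 20380 probe sets named 1 gene, 691 several and 1555 none.

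Log2(signal + 16) was fitted with limma 3.58.1 in R 4.3.3, with 1 mean per group over all 8 arrays, a mean-variance trend, two-sided tests, Benjamini-Hochberg adjustment over all tested probe sets and calls at an adjusted p under 0.05. Exact permutation of 2 against 2 arrays cannot give a p under 0.333. When tested on simulated data with known changes, the procedure gave a share of false calls above the 0.05 threshold, so calls just past it are less sure than their adjusted p. The members and lists were chosen with earlier results of these data known. Genes named are all member probe sets, the 5 genes most like each member, and in each of the 4 tested comparisons up to 4 called genes per list with the smallest p; values of Atoh8, Ccn2, Junb, Cdkn2b, Cdkn1a, Tob1, Acvr1, Acvr1b, Tgfbr2 and Tcf12 outside it were added after their values were seen. Alternatives were an added constant of 1, 64 or 256, quantile normalization, median centring, no filter or a 60th percentile filter, no trend, the set number as a block, and leaving out each array.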

Additional observations from a re-analysis of the deposited data

Results flagged for a closer look

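The results here were picked out because the serum response differed between the genotypes. Every Id2 probe set had all wild-type arrays higher and all knockout arrays lower after serum, with a difference (knockout minus wild type, log2 scale) of -4.44 for 1435176_a_at, -4.65 for 1422537_a_at and -3.09 for the dim 1453596_at, and Smad6 did the same, at -1.98. The first 2 rest on starved wild-type signals near the floor: with the largest added constant they were -2.95 and -2.87, and with each array left out they ran from -4.79 to -4.09 and from -5.47 to -3.83. These 4 differences were not tested, since the choice of the genes used them.

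For 12 pathway genes the difference was tested by limma's interaction term. It was lower in the knockout for Atoh8 at -4.12, Snai1 at -1.75, Acvr1b at -1.20, Tsc22d1 at -1.11 and Smad3 at -1.10. It was higher for Ppp1r15a at 1.70, Cdkn2b at 1.38 (adjusted p = 0.0499), Tob1 at 1.29, Skil at 1.26, Junb at 1.25 (adjusted p = 0.0273), Ccn2 at 1.14 (adjusted p = 0.0494) and Klf10 at 0.93. Cdkn2b lost its call without any 1 of the 8 arrays, with an adjusted p of 0.0516 to 0.22, and its knockout values lay near the floor.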

How the results depend on the processing

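The calls on the members held under all 17 alternatives, with 7 or 8 of the tested probe sets past the test of the average genotype difference and no called value turned its direction. The addition was Id1, after median centring (0.52, adjusted p = 0.034), with the set number as a replicate block (0.42, adjusted p = 0.0236) or without starved wild-type array 1. That test called 59.7% of all tested probe sets in the main fit. Over the alternatives that kept all 8 arrays, members over 2-fold apart with serum numbered 8 or 9 in wild-type and 3 or 4 in knockout cells. The 9 came with no filter, which adds the dim Id2 probe set. In the main fit 1.77% of all tested probe sets were higher in wild-type cells, and 3.75% higher and 3.21% lower in knockout cells. The choice of the genes used these responses, so nothing is read from these counts. Of pathway genes, 8 were called for serum in wild-type cells with no mean-variance trend, and 7 to 15 when each array was left out. For the difference of responses 7 were called with no filter, 4 with no trend, and 2 to 10 with each array left out. The cause was not tested, and each fit with an array left out also had fewer arrays. With the set number as a replicate block, 12, 25, 11 and 41 pathway genes were called (serum in wild-type cells, serum in knockout cells, their difference, average genotype difference) against 13, 25, 12 and 40. The labels do not say that the numbers pair the samples, and deviations of same-numbered arrays correlated between -0.034 and 0.214. Low signal limits Id2 and Id4, whose wild-type changes ran from 2.32 to 4.84 for 1422537_a_at and 1.13 to 2.41 for 1450928_at over the alternatives.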

Other observations

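Of the 18 bHLH factors listed as possible partners of Id proteins, 17 had a probe set naming them alone and 8 passed the low-signal filter. Those on the arrays below it were Hand2, Tcf21, Msc, Myod1, Myf5, Tal1, Lyl1, Hey1 and Hey2, among them the muscle factors Myod1 and Myf5 and the blood factors Tal1 and Lyl1, so no change was tested for these.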
